A study of Mus musculus with 2 samples.

Results

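Fezf1, Fezf2, Emx2 and Nkx2-4 are 4 of the 24905 genes in the deposited tables, taken by their gene symbols, with results of these data already known when they were chosen. All encode transcription factors that mark regions of the embryonic forebrain. Described here is which cells held each gene, whether Fezf1 and Fezf2 were found in the same cells, and how each overlapped with Otp and Foxb1, in each of the 2 libraries.

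The cells came from hypothalami of newborn CD-1 mice, an outbred stock, at postnatal day 1 to 4. Per the labels, 1 library was made from control pups (Sim1-Cre;tdTomato+/-) and 1 from Sim1 heterozygous pups (Sim1-Cre;tdTomato+/-;Sim1+/-), each from 6 pooled pups, and viable tdTomato+ cells were sorted from both pools before Drop-seq. Drop-seq catches the RNA of single cells on barcoded beads and counts each captured molecule by its unique molecular identifier (UMI). Both groups carry the Sim1-Cre transgene and the Ai14 tdTomato reporter, which stays on in a cell once Cre has been made in it or in its precursors, so the sorted cells are a lineage and need not still make Sim1. Sim1 is a transcription factor needed for neurons of the paraventricular nucleus.

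Each genotype is a single library. The differences given are between 2 libraries and not between genotypes, they carry no p-value, and the intervals (95%) cover counting error only. The pools can also differ in the mix of pups, ages and dissection, which cannot be told apart from genotype. The libraries held 6525080 UMIs in 2807 barcodes (control) and 5397693 UMIs in 2476 barcodes (Sim1 heterozygous), and shared 0 barcodes. Neuron-like cells numbered 2751 and 2397, with a median of 1788 and 1610 UMIs, and glia-like cells numbered 55 and 57. Sim1 itself had 732 UMIs (114 UMIs per 1000000 UMIs, CPM, interval 106 to 122) in control neuron-like cells and 493 (92.5 CPM, 84.6 to 101) in Sim1 heterozygous ones. The labels do not say which part of Sim1 is deleted, so this level does not check them. All 8 neuron markers were found in both libraries. Of the markers of other cells, those of the pituitary stood out: 2267 UMIs in control neuron-like cells (353 CPM, 4 of 5 measured genes found, Lhb at 0) against 32 (6.01 CPM, Gh, Tshb and Lhb at 0) in Sim1 heterozygous ones.

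Fezf1 and Fezf2 are related zinc finger repressors that pattern the early forebrain. Fezf1 is best known in the olfactory system and the ventromedial hypothalamus, and Fezf2 in deep-layer neurons of the cortex, where it acts ahead of Bcl11b. Emx2 is a homeodomain factor of the dorsal telencephalon that is also made in parts of the posterior hypothalamus. Nkx2-4 is a close relative of Nkx2-1, the homeodomain factor of the ventral hypothalamus. Otp is a homeodomain factor needed for neuroendocrine neurons of the paraventricular and neighbouring nuclei, and Foxb1 is a forkhead factor of the mammillary body.

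In the mouse genome (mm10, GENCODE M21) Fezf1 lies on chromosome 6 from 23245044 to 23248362 on the minus strand, Fezf2 on chromosome 14 from 12342094 to 12348189 on the minus strand, Emx2 on chromosome 19 from 59458372 to 59465357 on the plus strand and Nkx2-4 on chromosome 2 from 147083316 to 147085445 on the minus strand. All 4 are protein-coding genes. The antisense gene Emx2os overlaps the first 264 bases of Emx2, at its 5′ end and 6722 bases from its 3′ end. Drop-seq reads come from 3′ ends, and the sources used here do not say whether strand entered the counting, so reads in that overlap cannot be assigned.

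Stretches upstream of the RefSeq starts of the paralogues Fezf1 and Fezf2 are shown because the 2 genes had different leading clusters. They run from 250 to 99 bases before the start for Fezf1 and from 250 to 95 for Fezf2. The matches at Emx2 are shown because Emx2 shared cells with Fezf2 and Nkx2-4. All are read from RefSeq promoter windows (GRCm38.p6, 250 bases before to 50 after the start, found for all 4 genes), and the first 2 are cut to the part outside GENCODE exons. The Fezf2 stretch lies inside the longer GENCODE span of that gene, which starts upstream at 12348189. Both Emx2 matches also lie inside the GENCODE span of Emx2. The homeodomain match lies after the RefSeq start, and the NK2-type match lies before it, in the overlap with Emx2os. Motifs were searched on both strands and are in capitals. No data on binding or open chromatin were used, and a match is a description only.
Fezf1 (chr6:23248363-23248514, minus strand): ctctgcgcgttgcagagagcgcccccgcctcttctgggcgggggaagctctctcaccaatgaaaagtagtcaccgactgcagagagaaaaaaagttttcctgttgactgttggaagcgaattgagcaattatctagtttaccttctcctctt
Fezf2 (chr14:12345960-12346115, minus strand): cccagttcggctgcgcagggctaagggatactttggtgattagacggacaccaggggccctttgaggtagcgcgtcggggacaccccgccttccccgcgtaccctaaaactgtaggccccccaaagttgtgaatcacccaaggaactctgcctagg
Emx2, homeodomain core (chr19:59458716-59458739, plus strand): atccccgcacTAATTAggctcatg
Emx2, NK2-type (chr19:59458612-59458638, plus strand): ccctctgacgCACTTTAaagagtctcc
The homeodomain core TAATTA was in the Emx2 window and in none of the windows of Fezf1, Fezf2 and Nkx2-4, and 5.29% of all 32851 windows held it. The NK2-type motif CACTTNA had the same distribution among the 4 genes and was in 11.5% of all windows. The forkhead core TGTTTAC was in none of the 4 and in 3.65% of all windows. The motifs do not overlap one another at these sites.

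Neuron-like cells were clustered on genes that left out the 4 members, Otp, Foxb1 and Sim1, and each of the 15 clusters is called by its 2 leading genes, or by 1 of them in the case of Sall3. A cell is called positive for a gene when it held at least 1 UMI of it. Each gene was concentrated in 1 or a few clusters, and for each gene the cluster with most of its UMIs was the same in both libraries.

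Fezf1 was found mainly in the cluster led by Zic4 and Zic1, genes of the ZIC zinc finger family. This cluster held 121 of 227 Fezf1 UMIs in control (53.3%) and 59 of 101 in Sim1 heterozygous cells (58.4%). Positive cells there were 70 of 312 in control (22.4%, Clopper-Pearson interval 17.9 to 27.5) and 31 of 151 in the Sim1 heterozygous library (20.5%, 14.4 to 27.9). In level, the cluster led the order in both libraries, with 154 CPM (exact Poisson interval 128 to 184) in control and 131 CPM (99.6 to 169) in Sim1 heterozygous cells. Next in control came the clusters led by Kcnq1ot1 and Atp9a (103 CPM, 44.5 to 203), by Nr2f2 and Aldoc (49.8 CPM, 39.2 to 62.4) and by Serp2 and Acot7 (36.1 CPM, 18.7 to 63.1). The interval of the Kcnq1ot1 cluster, which rests on 8 UMIs, holds the value of its upper and of its lower neighbour. In Sim1 heterozygous cells the second place went to the somatostatin (Sst) and Ptbp3 cluster, with 6 Fezf1 UMIs in 33 cells (113 CPM, 41.6 to 247), against 1 UMI in 40 control cells. The cluster led by Neurod6 and Nfib had 0 Fezf1 UMIs in 330 control cells, which allows a share of up to 0.909%, and 0 in 205 Sim1 heterozygous cells, which allows up to 1.46%.

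Fezf2 had a different leading cluster from Fezf1, the one led by Synpr, a synaptic vesicle protein gene, and Ebf3, a transcription factor gene. This cluster held 90 of 163 Fezf2 UMIs in control (55.2%) and 65 of 107 in Sim1 heterozygous cells (60.7%). Positive cells made up 16.0% of that cluster in control (55 of 343) and 14.8% in Sim1 heterozygous cells (38 of 256). By share of cells, a second home was among neurosecretory neurons. In the cluster led by Avp and Oxt, the vasopressin and oxytocin genes, positive cells were 20 of 122 in control (16.4%, 10.3 to 24.2) and 3 of 26 in the Sim1 heterozygous library (11.5%, 2.45 to 30.2). In the cluster led by the corticotropin-releasing hormone gene Crh and the glucocorticoid receptor gene Nr3c1, they were 8 of 68 (11.8%) and 9 of 60 (15.0%). These rest on few UMIs per cell, with 22 and 5 Fezf2 UMIs in the Avp and Oxt cluster and 10 and 9 in the Crh and Nr3c1 cluster. The order by level was the same in control, with 119 CPM (95.9 to 147) for Synpr and Ebf3, 73.4 CPM (35.2 to 135) for Crh and Nr3c1 and 64.9 CPM (40.7 to 98.2) for Avp and Oxt, and in Sim1 heterozygous cells, with 109, 81.0 and 69.0 CPM. Neighbours in that order do not differ beyond their counting intervals. In the Zic4 and Zic1 cluster, where most Fezf1 was, Fezf2 had 2 UMIs in 312 control cells and 0 in 151 Sim1 heterozygous cells, which allows a share of up to 1.99%. Some other clusters held both genes. The control Serp2 and Acot7 cluster had 12 UMIs of each (36.1 CPM each). The Sim1 heterozygous Sst and Ptbp3 cluster had 6 Fezf1 UMIs in 5 cells, and 3 Fezf2 UMIs that all came from 1 cell.

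Emx2 was the most concentrated of the 4. The Synpr and Ebf3 cluster held 212 of its 295 UMIs in control (71.9%) and 195 of 293 in Sim1 heterozygous cells (66.6%). Its positive cells were 108 of 343 in control (31.5%, 26.6 to 36.7) and 90 of 256 in the Sim1 heterozygous library (35.2%, 29.3 to 41.3), at 281 CPM (244 to 321) and 327 CPM (283 to 377). The next cluster by UMIs was that of Nr2f2 and Aldoc, with 45 UMIs in each library (29.9 and 44.4 CPM). Unlike Fezf2, Emx2 was not found in neurosecretory clusters: 0 UMIs in the Avp and Oxt cluster and 0 in the Crh and Nr3c1 cluster, in both libraries. A count of 0 allows shares of up to 2.46% and 4.41% in control, and up to 11.5% and 5.00% in the Sim1 heterozygous library.

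Nkx2-4 had 2 main homes. The Synpr and Ebf3 cluster held 107 of 261 UMIs in control (41.0%) and 91 of 258 in Sim1 heterozygous cells (35.3%), and 22.4% and 24.2% of its cells were positive. The cluster led by Neurod6 and Nfib, transcription factors also known from the telencephalon, held 83 UMIs (31.8%) and 87 UMIs (33.7%), and 19.7% (65 of 330) and 27.8% (57 of 205) of its cells were positive. In control the levels were 142 CPM (116 to 171) and 106 CPM (84.5 to 132) in that order, and in Sim1 heterozygous cells 153 CPM (123 to 188) and 172 CPM (138 to 212), so the order turned within overlapping intervals. In the Zic4 and Zic1 cluster Nkx2-4 had 0 UMIs in 312 control and 151 Sim1 heterozygous cells (limits 0.962% and 1.99%). The Avp and Oxt and the Crh and Nr3c1 clusters also had 0 in both libraries.

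**Figure D1:**
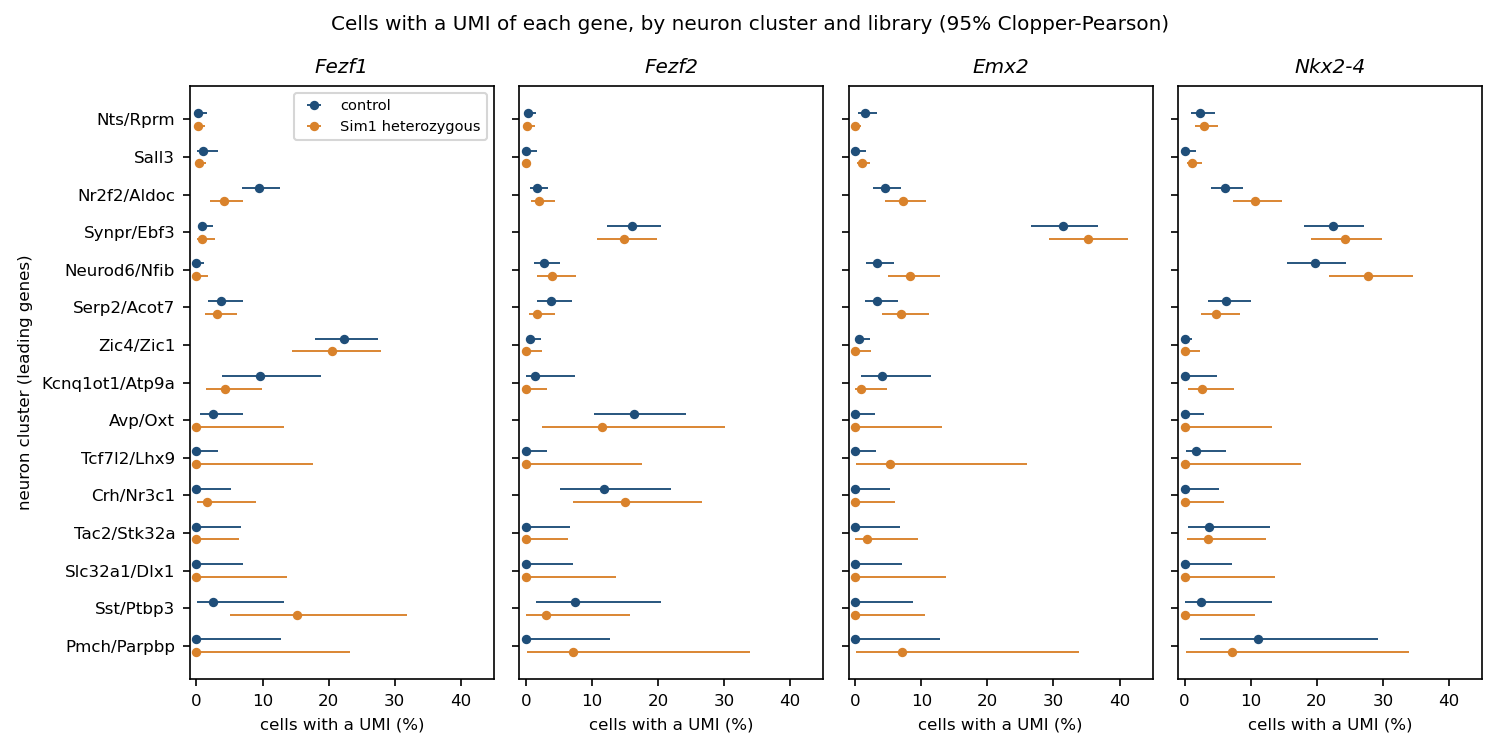
Share of cells with at least 1 UMI (x axis, percent) of each gene in the 15 neuron clusters (y axis, named by their leading genes), with control in blue and Sim1 heterozygous in orange and bars for 95% Clopper-Pearson intervals. Fezf1 peaks in Zic4/Zic1 (22.4% and 20.5%), Emx2 in Synpr/Ebf3 (31.5% and 35.2%), Fezf2 in Synpr/Ebf3, Avp/Oxt and Crh/Nr3c1, and Nkx2-4 in Synpr/Ebf3 and Neurod6/Nfib.

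The shares are low throughout, and free RNA can give a UMI to a cell that does not make the gene. Of glia-like cells (median 1350 UMIs in control and 879 in Sim1 heterozygous), 0 and 1 held a Fezf1 UMI, 0 and 1 a Fezf2 UMI, 2 and 3 an Emx2 UMI, and 0 and 4 an Nkx2-4 UMI. The 4 Sim1 heterozygous cells with Nkx2-4 are 7.02% of 57, close to the 7.72% of neuron-like cells. After thinning to equal depth they were 3 of 30 against 3.98%. Emx2 was in 5.26% of glia-like and 6.38% of neuron-like cells of that library, and after thinning in 3.33% and 3.26%. For Fezf2 these shares were 1.75% and 2.96%, and after thinning 3.33% and 1.55%. The share over all neuron-like cells alone thus does not set Nkx2-4, Emx2 or Fezf2 apart from background there. For Fezf1, 0 of 30 thinned glia-like cells held a UMI against 1.66%, too few cells to tell. For Nkx2-4, the 24.2% and 27.8% of its main clusters came with median depths of 1811 and 1900 UMIs in the same library. Its 0 of 151 in the Zic4 and Zic1 cluster there came with a median depth of 2267 UMIs. The part of free RNA in these shares was not tested.

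Fezf1 and Fezf2 were rarely found in the same cell, but at this depth a cell with both would be rare in any case. In control, 136 cells were positive for Fezf1 and 115 for Fezf2, and 3 held both, which is 2.21% of the first and 2.61% of the second. The product of the 2 shares, summed over 5 depth groups of cells, gives 6.06 cells, and the ratio of found to that number was 0.495 (interval 0.102 to 1.45). Among Sim1 heterozygous cells 66 and 71 were positive and 2 held both (3.03% and 2.82%), against 2.77 by the product, a ratio of 0.722 (0.0875 to 2.61). Both intervals include 1, so exclusion between single cells was not detectable at this depth. When the product was taken within each cluster the ratios were 1.16 (0.238 to 3.38) in control and 2.06 (0.25 to 7.46) in Sim1 heterozygous cells, above 1 with intervals that include it. The different leading clusters of the 2 genes were given above.

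The 5 cells with both genes were spread over 5 clusters: those of Avp and Oxt, Synpr and Ebf3, and Sst and Ptbp3 in control, and those of Crh and Nr3c1 and of Serp2 and Acot7 in Sim1 heterozygous cells. Each held 1 Fezf1 UMI. The Fezf2 count was 1 UMI in 4 of them and 4 UMIs in the control cell of the Synpr and Ebf3 cluster, which also held 3 Emx2 UMIs. Their totals were 5568, 4151 and 1368 UMIs in control and 3654 and 2477 in Sim1 heterozygous cells, and 3 of the 5 ranked above 80% of the cells of their library. Doublets were not removed, and their part in these cells was not tested. No cell held 2 or more UMIs of each gene.

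Fezf1 stood apart more clearly from Emx2 and Nkx2-4. With Emx2 it shared 1 cell in each library, against 9.39 by the product of shares in control (ratio 0.107, 0.0027 to 0.593) and 5.69 in Sim1 heterozygous cells (0.176, 0.00445 to 0.98). With Nkx2-4 it shared 2 cells and 1 cell, against 11.8 and 6.92 (0.169 and 0.144). Nkx2-1 gave a like picture, with 3 and 1 shared cells against 18.0 and 14.8 (0.167 and 0.0674). Nr5a1, the defining factor of the ventromedial nucleus, had 2 UMIs in control neuron-like cells, 1 of them in a Fezf1-positive cell, and 0 in Sim1 heterozygous ones, so that nucleus's defining marker was at or near 0 here.

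The other 3 genes shared cells more often than the product of shares gives. Fezf2 and Emx2 were together in 40 control cells (34.8% of Fezf2-positive and 25.6% of Emx2-positive cells) against 6.71, a ratio of 5.97 (4.26 to 8.12). Among Sim1 heterozygous cells they were together in 31 (43.7% and 20.3%) against 6.04, a ratio of 5.13 (3.49 to 7.29). Emx2 and Nkx2-4 shared 41 and 45 cells, with ratios of 3.31 (2.38 to 4.49) and 2.94 (2.14 to 3.93). For Fezf2 and Nkx2-4, the shared cells were 19 and 17 and the ratios 2.22 (1.34 to 3.47) and 2.29 (1.34 to 3.67). The 3 pairs have ratios above 1 in both libraries, and all 3 genes have the Synpr and Ebf3 cluster in common.

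**Figure D2:**
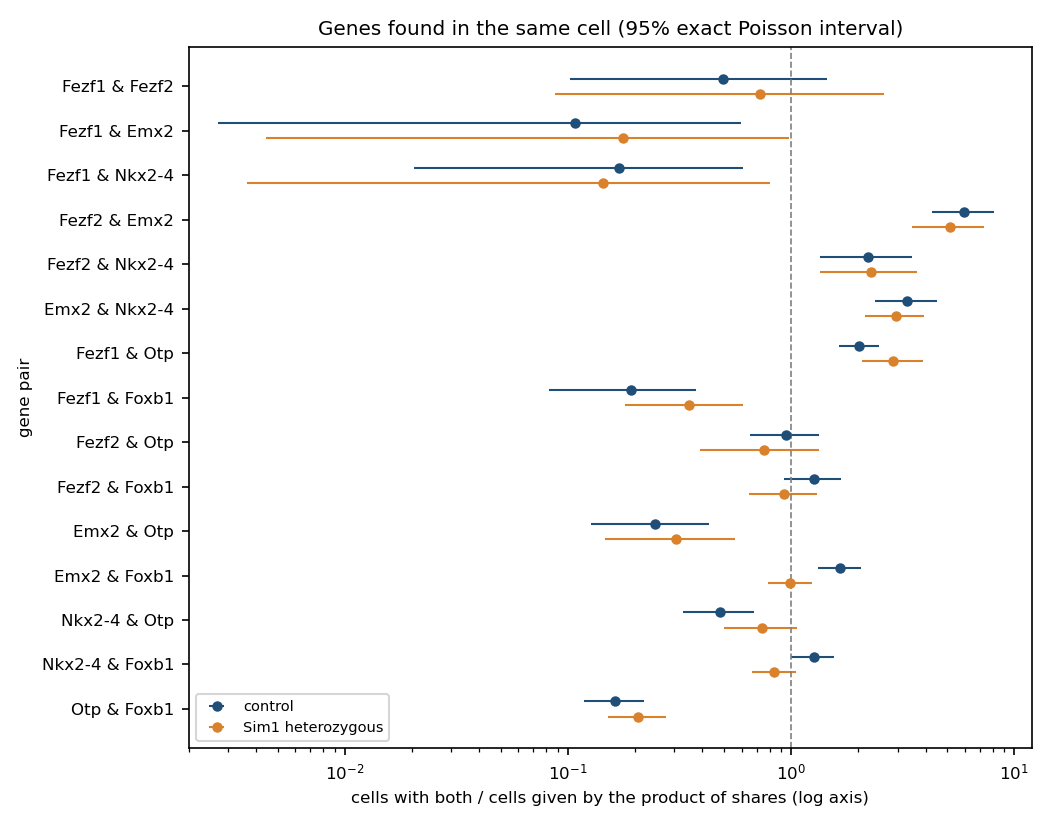
Number of cells that held both genes of a pair, divided by the number that the product of their shares gives within depth groups (x axis, log scale), for each pair (y axis), with control in blue, Sim1 heterozygous in orange and bars for 95% exact Poisson intervals. The dashed line marks 1, which the intervals of Fezf1 with Fezf2 include (0.495 and 0.722), while Fezf1 with Emx2 lies below it (0.107 and 0.176) and Fezf2 with Emx2 above it (5.97 and 5.13).

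Otp and Foxb1 divide this lineage, with 43 control and 46 Sim1 heterozygous cells holding both, against 264 and 223 by the product of shares. The 4 genes fell on different sides of that divide. Fezf1-positive cells were mostly Otp-positive: 94 of 136 in control (69.1%) and 42 of 66 in Sim1 heterozygous cells (63.6%), against 27.5% and 16.7% of Fezf1-negative cells. The ratios to the product of shares were 2.02 (1.64 to 2.48) and 2.87 (2.07 to 3.88). Foxb1 was in 8 Fezf1-positive control cells (5.88%, against 34.5% of negative cells) and in 12 Sim1 heterozygous ones (18.2%, against 1165 of 2331 negative cells), with ratios of 0.191 (0.0823 to 0.376) and 0.348 (0.18 to 0.607). Of the 12, 7 also held Otp, and these had a median of 5414 UMIs per cell. Foxb1 UMIs were also in 10 of 55 glia-like control cells (18.2%) and 11 of 57 Sim1 heterozygous ones (19.3%). Otp UMIs were in 4 and 1 of them. Unthinned, the Foxb1 share of Fezf1-positive Sim1 heterozygous cells was near that of glia-like cells, but at median depths of 2646.5 and 879 UMIs. After thinning to equal depth, 1 of 30 Fezf1-positive and 8 of 30 glia-like cells (26.7%) of that library held Foxb1. The part of free RNA in the Foxb1 overlaps was not tested.

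Emx2 had the opposite pattern for Otp. Otp UMIs were in 12 of 156 Emx2-positive control cells (7.69%) and 10 of 153 Sim1 heterozygous ones (6.54%), with ratios of 0.245 (0.127 to 0.428) and 0.304 (0.146 to 0.559). In thinned Sim1 heterozygous cells, 5 of which held both, the ratio was 0.704 with an interval that includes 1 (0.229 to 1.64). Foxb1 was in 83 (53.2%) and 79 (51.6%) of them, nearly the same share in both libraries. The Emx2-negative cells differed, with Foxb1 in 31.9% in control and 48.9% in Sim1 heterozygous cells, so the ratio was 1.66 (1.32 to 2.06) in control and 0.993 (0.786 to 1.24) in Sim1 heterozygous cells. In thinned control cells it was 1.28 (0.802 to 1.94). Emx2 was not general to Foxb1-positive neurons. The clusters led by Nts and Rprm and by Sall3 had the highest Foxb1 levels, 2170 and 2290 CPM in control and 2000 and 2120 CPM in Sim1 heterozygous cells, but held 8 and 0 Emx2 UMIs in control and 0 and 5 in Sim1 heterozygous cells. Foxb1 in the Synpr and Ebf3 cluster was at 909 and 723 CPM.

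Fezf2 was on both sides of the divide. Otp was in 33 of 115 Fezf2-positive control cells (28.7%) and 12 of 71 Sim1 heterozygous ones (16.9%), and Foxb1 in 48 (41.7%) and 35 (49.3%). The shares of Fezf2-negative cells were 29.6% and 18.0% for Otp and 32.7% and 49.1% for Foxb1. They were near those of Fezf2-positive cells except for Foxb1 in control, which was higher with Fezf2 (41.7% against 32.7%). The 4 ratios ran from 0.759 to 1.27 with intervals that include 1. Behind this average were cells of unlike kinds. Split by Emx2 and Otp, the Fezf2-positive control cells comprised 36 with Emx2 only, 29 with Otp only, 4 with both and 46 with neither. The Sim1 heterozygous ones comprised 30, 11, 1 and 29 in the same order. Cells with 2 or more Fezf2 UMIs had Otp less often than the product of shares gives, though with wide intervals, in control (5 cells, ratio 0.478, 0.155 to 1.12) and in Sim1 heterozygous cells (1 cell, 0.193, 0.00489 to 1.08). The same cells had Foxb1 at a ratio of 2.02 (1.23 to 3.12) in control and 1.14 (0.607 to 1.95) in Sim1 heterozygous cells.

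Nkx2-4 overlapped with Otp less than the product of shares gives in control, in 31 of 199 positive cells (15.6%, ratio 0.48, 0.326 to 0.681). In the Sim1 heterozygous library 30 of 185 positive cells held Otp (16.2%), with a ratio whose interval includes 1 (0.741, 0.5 to 1.06) and which was 1.15 (0.553 to 2.12) in thinned cells. Its Foxb1 overlap was 81 cells (40.7%, 1.26, 0.999 to 1.56) and 82 cells (44.3%, 0.842, 0.67 to 1.05). Emx2 and Neurod6, which mark its 2 main clusters, were both found in 1 Nkx2-4-positive cell in each library. In control 40 cells had Emx2 only, 22 Neurod6 only and 136 neither, and in Sim1 heterozygous cells 44, 23 and 117. Most Nkx2-4-positive cells thus held neither gene. No product of shares was taken for this pair, so the count with both is a description only.

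**Figure D3:**
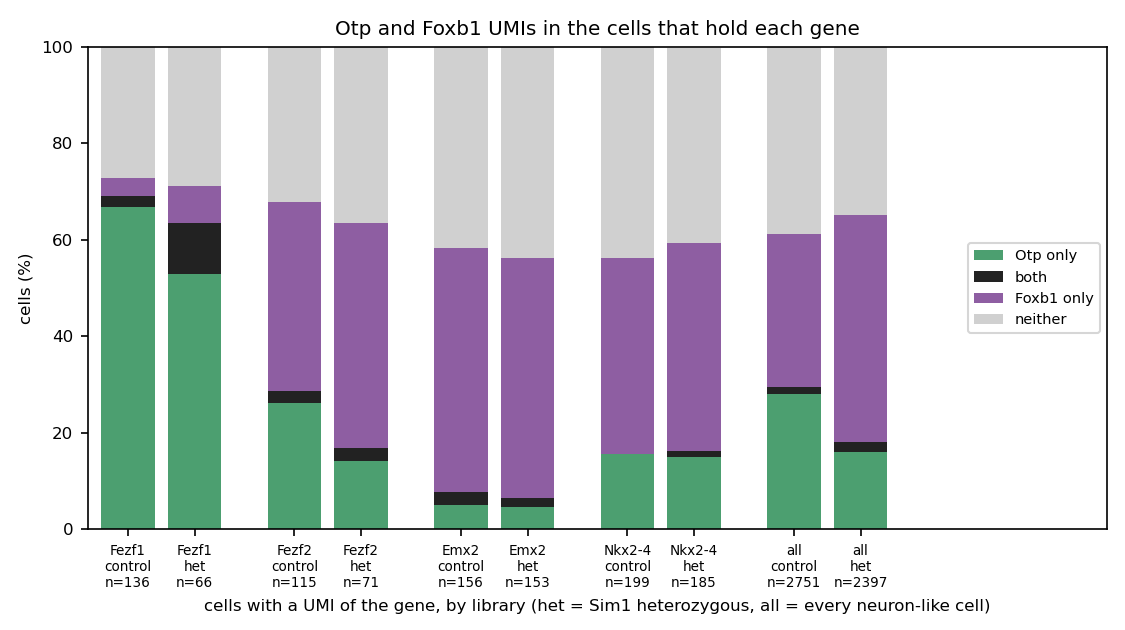
Share of cells (y axis, percent) with an Otp UMI only, a Foxb1 UMI only, both or neither, among the cells positive for each gene and among all neuron-like cells, by library, with the number of cells under each bar. Otp-only cells make up 66.9% and 53.0% of Fezf1-positive cells, and 5.13% and 4.58% of Emx2-positive cells.

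The genes that went with each member were taken as those at least 2-fold higher or lower in CPM in positive than in other neuron-like cells, in both libraries, of 11571 genes tested. For Fezf1, 103 genes were higher (0.890% of those tested) and 122 lower (1.05%). Cbln1, a secreted synapse organiser, was at 253 against 55.6 CPM in control (log2 ratio 2.19, 1.87 to 2.50) and 197 against 42.5 CPM in Sim1 heterozygous cells (2.24, 1.74 to 2.67). The neuropeptide gene Tac1 was at 447 against 151 CPM and 721 against 146 CPM. Zic1, Zic4, Otp, Car10 and Calb2 were higher too. In control cells with 2 or more Fezf1 UMIs the log2 ratios of Zic4, Zic1 and Otp were under 2-fold, at 0.59, 0.80 and 0.79, against 1.67, 1.5 and 1.2 in all positive cells, while in Sim1 heterozygous cells they were 2.81, 2.71 and 1.53. Lower were Foxb1 (39.6 against 551 CPM in control, 137 against 945 CPM in Sim1 heterozygous cells), Cck, Lhx1os and the melanin-concentrating hormone gene Pmch. The mammillary genes Lhx1 and Nkx2-1 were lower in Fezf1-positive cells as well, and as some genes of that list are not reported here, no count over it is given. Trh, the thyrotropin-releasing hormone gene, singled out after its values were seen, was in 20 of 136 Fezf1-positive control cells (14.7%) and 19 of 66 Sim1 heterozygous ones (28.8%), against 4.51% and 3.86% of other cells. Fezf1-positive cells were deeper, with medians of 3121.5 against 1752 UMIs in control and 2646.5 against 1580 in Sim1 heterozygous cells. In level, Trh was under 2-fold in control, at 110 against 74.7 CPM (log2 ratio 0.58, 0.11 to 0.98), and so was not called. In Sim1 heterozygous cells it was at 145 against 51.8 CPM (1.52, 0.94 to 1.99).

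For Fezf2, 176 genes were higher (1.52% of those tested) and 104 lower (0.899%). Bcl11b, which acts with Fezf2 in the cortex, was in 24 of 115 positive control cells (20.9%) and 15 of 71 Sim1 heterozygous ones (21.1%), against 3.64% and 3.35% of other cells. Its log2 ratio was 2.35 (1.70 to 2.88) and 2.63 (1.95 to 3.21). It was the 1 gene that was higher among 7 tested of the list of Fezf partners and targets, and none was lower, with medians of -0.19 and 0.33 beside 0.09 and 0.10 over all genes. Avp was at 26700 against 4610 CPM in control and 8580 against 1150 CPM in Sim1 heterozygous cells. In control cells with 2 or more Fezf2 UMIs the Avp log2 ratio turned to -2.35, whereas in such Sim1 heterozygous cells it was 3.51. Zic4 was lower, with 3 of 115 positive control cells holding it and 0 of 71 Sim1 heterozygous ones. Emx2, Nkx2-4, Pantr1, Spock1, the galanin gene Gal and Fam204a were the other named genes that were higher, and Rprm, Tcf7l2 and Onecut2 the others that were lower. With 2 or more Fezf2 UMIs the log2 ratio of Gal was 0.28 in control and 2.16 in Sim1 heterozygous cells, against 1.13 and 1.59 in all positive cells.

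For Emx2, 84 genes were higher (0.726% of those tested) and 97 lower (0.838%). Bcl11b was again higher, at 120 against 19.3 CPM in control and 118 against 14.9 CPM in Sim1 heterozygous cells, and was in 23.7% and 22.9% of positive cells. Synpr was at 155 against 32.0 CPM and 233 against 25.4 CPM, the neuropeptide Y receptor gene Npy1r at 82.3 against 17.3 CPM and 97.6 against 17.1 CPM, and the secreted signal gene Wnt7a at 56.4 against 13.3 CPM and 62.3 against 13.4 CPM. Fezf2, Pantr1, Crabp1 and Nkx2-4 were the remaining named genes that were higher. Of the 12 paraventricular genes tested, 7 were lower in Emx2-positive cells (Otp, Avp, Oxt, Crh, Trh, Sst and Zfhx4) and 1 higher (Pou3f3), with medians of -1.46 and -1.60 beside 0.08 and 0.03 over all genes. Emx2os was found in 27 control and 20 Sim1 heterozygous cells, of which 17 (63.0%) and 11 (55.0%) held Emx2. Given the overlap of the 2 genes these counts are uncertain.

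For Nkx2-4, 52 genes were higher (0.449% of those tested) and 80 lower (0.691%). The nuclear factor gene Nfib was at 147 against 50.1 CPM in control and 128 against 40.4 CPM in Sim1 heterozygous cells, the calcitonin receptor gene Calcr at 50.1 against 13.1 CPM and 41.4 against 11.8 CPM, and Ebf3 at 154 against 61.3 CPM and 112 against 30.5 CPM. Emx2, Cpne4, Mia, Npnt and Nfix were higher too. Of 6 telencephalic genes tested 4 were higher (Neurod6, Neurod2, Nfib and Nfix) and 2 lower (Zic1 and Zic2), with medians of 1.03 and 1.51 beside 0.05 and 0.03 over all genes. Avp, Oxt, Zic4 and Zic1 were the named genes that were lower. Pituitary markers were at 1580 CPM in Nkx2-4-positive control cells, against 130 to 259 CPM in those of the other members. Of the 875 growth hormone (Gh) UMIs in these cells 764 came from 1 cell.

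Of the ventromedial genes tested, none was higher and 2 of 7 lower with Fezf1 (Nkx2-1 and Fam19a1), 2 of 8 higher and 2 lower with Fezf2 (Nptx2 and Gda, Adcyap1 and Bdnf), and 1 of 8 lower, Fezf1 itself, with Emx2 and with Nkx2-4. The mammillary gene Uncx, a homeodomain factor, had log2 ratios (control, then Sim1 heterozygous) of 0.75 and 0.01 with Fezf1, 1.16 and 1.12 with Fezf2, 1.70 and 1.52 with Emx2, and 1.13 and 0.82 with Nkx2-4. Of the 6 telencephalic genes tested, 2 were higher (Zic1 and Zic2) and 3 lower (Neurod6, Nfib and Nfix) with Fezf1, at medians of -2.10 and -1.06. With Fezf2 2 were lower (Zic1 and Zic2), and with Emx2 4 were lower (Neurod6, Neurod2, Zic1 and Zic2), at medians of -2.0 and -1.58. Paraventricular genes with Fezf1 comprised 1 of 12 higher (Otp) and 3 lower (Pou3f3, Avp and Oxt), with Fezf2 2 higher (Avp and Oxt) and 1 lower (Zfhx4), and with Nkx2-4 4 lower (Avp, Oxt, Crh and Trh). Of the 4 thalamic genes tested, Tcf7l2 was lower with all 4 members, Prox1 lower with Fezf1 and Fezf2, and Calb2 higher with Fezf1. None of the 6 immature neuron genes was called with any of them, and no cycling gene had enough UMIs to be tested.

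Slc17a6, the vesicular glutamate transporter gene, was in 60.9% to 81.8% of positive cells over the 4 genes and both libraries, against 59.5% to 64.0% of other cells. Positive cells were deeper, with medians of 1965 to 3121.5 UMIs against 1545 to 1782. In level the Slc17a6 log2 ratios ran only from -0.11 to 0.26. Slc32a1, the vesicular GABA transporter gene, was in 0 to 2 positive cells of each group and Gad1 in 0 or 1. Gad2 was in 1 to 19 cells, the most being 19 of 185 Nkx2-4-positive Sim1 heterozygous cells (10.3%, against 4.57% of other cells). The Irx genes, homeodomain factors that meet the Fezf genes at a boundary in the embryonic forebrain, gave no common cell with them: Irx1, Irx2, Irx3, Irx5 and Irx6 had no UMI in any Fezf1-positive or Fezf2-positive cell of either library. Since Irx3 was in only 0.497% and 0.300% of Fezf1-negative cells, this depth could not show a lack of overlap.

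Over 28 points, each 1 cluster of at least 20 cells in 1 library, the gene whose log2(CPM + 10) followed Fezf1 most closely was the homeobox gene Gsc (Pearson r = 0.86), and Zic2 was at 0.71. Fezf2 was followed by Pou3f4 (0.76), Gas5 (0.75) and Hadha (0.74). Emx2 was nearest to Emx2os (0.84), Dkk2 (0.79) and Zfp213 (0.78), and Nkx2-4 to Mia (0.78), Emx2 (0.77) and Drd2 (0.74). These are descriptions, since points share 2 libraries and their depth, and each cluster enters up to 2 times.

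Between the libraries, Fezf1 was the 1 member of 4 that was lower by at least 1.5-fold in Sim1 heterozygous neuron-like cells, as were 9.15% of the 14443 genes tested, and no member was higher by that fold, against 7.96% of genes. Fezf1 stood at 35.3 CPM (30.9 to 40.2) in control and 19.0 CPM (15.4 to 23.0) in Sim1 heterozygous cells, a log2 ratio of -0.89 (-1.25 to -0.55), with 4.94% and 2.75% of cells positive. With cells thinned to 857 UMIs the shares were 2.35% (1.80 to 3.01) and 1.66% (1.12 to 2.36), which overlap, and 156 control and 586 Sim1 heterozygous cells were too shallow to enter. Sums over cells cannot tell fewer Fezf1 cells from less Fezf1 RNA per cell.

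The shares of the clusters that held Fezf1 also differed between the libraries. The Zic4 and Zic1 cluster made up 11.3% of neuron-like cells in control and 6.30% in the Sim1 heterozygous library, and with 13 clusters weighted equally the log2 ratio was -0.04. Left without the Sst and Ptbp3 cluster (1 Fezf1 UMI in 40 control and 6 in 33 Sim1 heterozygous cells), a choice made after seeing the data, it was -0.50. Within the Zic4 and Zic1 cluster it was -0.22 (-0.71 to 0.23). Within the Nr2f2 and Aldoc cluster Fezf1 was lower, with 75 UMIs in 423 control cells and 17 in 293 Sim1 heterozygous cells (-1.51, -2.42 to -0.80), but after thinning 2.17% and 1.80% of its cells were positive. Within Otp-positive cells the log2 ratio was -0.42 (-0.87 to -0.02), and after thinning 4.08% and 4.13% were positive. The part of depth and cluster make-up in the whole difference was not tested further.

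Fezf2 was at 25.4 CPM (21.6 to 29.6) in control and 20.1 CPM (16.5 to 24.3) in Sim1 heterozygous cells (log2 ratio -0.33, -0.70 to 0.02). Emx2 was at 45.9 CPM (40.8 to 51.4) and 55.0 CPM (48.9 to 61.7), a log2 ratio of 0.26 (0.02 to 0.50), and Nkx2-4 at 40.6 CPM (35.8 to 45.8) and 48.4 CPM (42.7 to 54.7), a log2 ratio of 0.25 (0.00 to 0.51). All 3 differences are under 1.5-fold, beside a median of 0.04 over all genes. Otp and Foxb1 moved further, with log2 ratios of -0.64 (-0.74 to -0.54) and 0.82 (0.75 to 0.88). Of the Fezf partners and targets, 1 of 8 tested was lower (Otp) and 1 higher (Tle2, a corepressor gene), with a median of -0.06.

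Inside single clusters, most member levels did not differ beyond counting error. In the Synpr and Ebf3 cluster the log2 ratios were -0.12 (-0.61 to 0.35) for Fezf2, 0.22 (-0.07 to 0.51) for Emx2 and 0.11 (-0.31 to 0.52) for Nkx2-4. The intervals that left out 0 were, beside that of Fezf1 above, those of Nkx2-4 in the Neurod6 and Nfib cluster (0.69, 0.24 to 1.15) and in the Nr2f2 and Aldoc cluster (0.82, 0.15 to 1.51), and that of Emx2 in the Serp2 and Acot7 cluster, with 10 UMIs in control and 25 in Sim1 heterozygous cells (1.92, 0.89 to 3.22). Foxb1 was also higher in the Sim1 heterozygous cells of these 3 clusters, by 1.86, 0.38 and 1.15 on the log2 scale, and its part in these differences was not tested.

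Among Foxb1-positive cells, Fezf2 and Emx2 were lower in the Sim1 heterozygous library, with log2 ratios of -0.91 (-1.43 to -0.41) and -0.47 (-0.80 to -0.14). Among Otp-positive cells Emx2 was higher in the Sim1 heterozygous library (12 and 17 UMIs, 1.24, 0.12 to 2.47), and so was Nkx2-4 (36 and 36 UMIs, 0.77, 0.06 to 1.48). Among Foxb1-positive cells, those positive for Fezf2 were 5.27% of 911 in control and 2.97% of 1177 in Sim1 heterozygous cells, and for Emx2 9.11% and 6.71%. The Sall3 cluster, rich in Foxb1 and almost without these genes, made up 7.85% of neuron-like cells in control and 21.1% in the Sim1 heterozygous library. Its part in the lower shares was not tested.

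**Figure D4:**
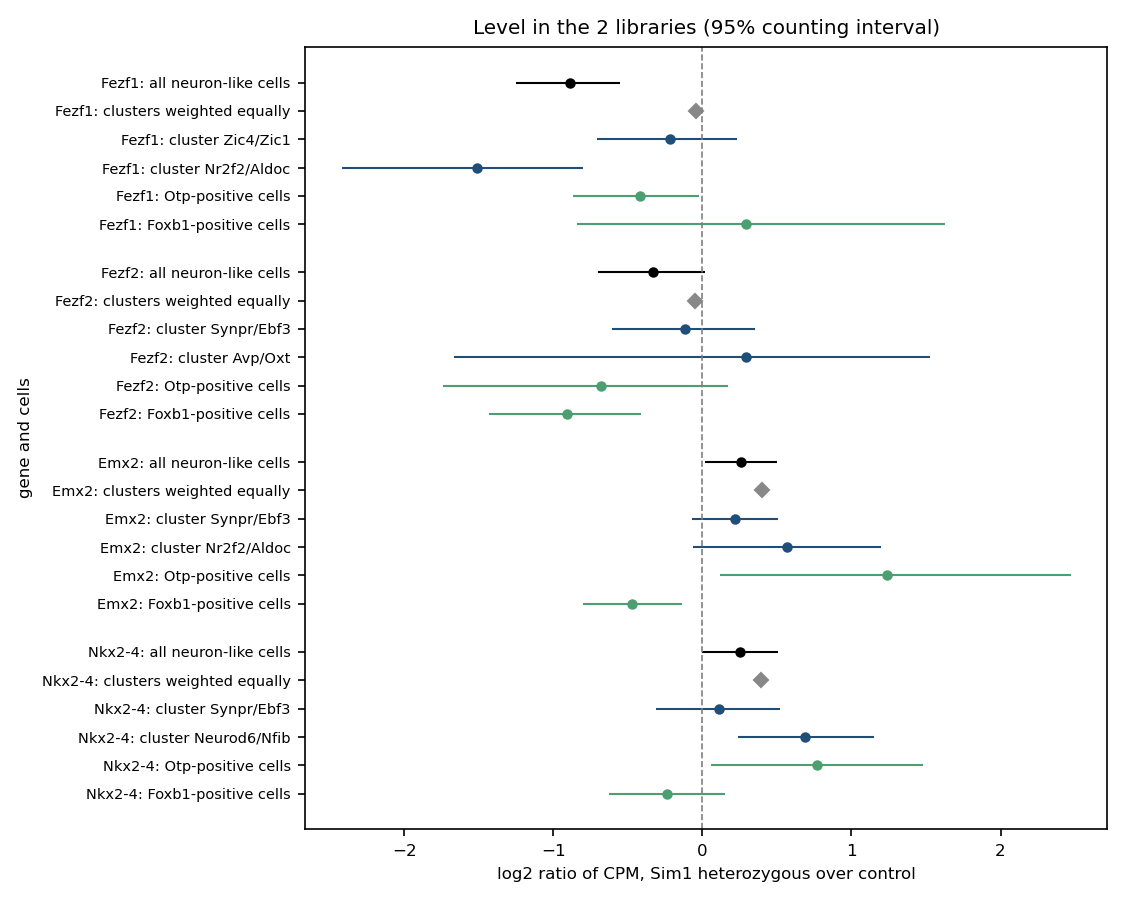
Log2 ratio of CPM, Sim1 heterozygous over control (x axis), for each gene in all neuron-like cells (black), with clusters weighted equally (grey diamonds, no interval), in the 2 clusters with most of its UMIs (blue) and in Otp-positive and Foxb1-positive cells (green), with bars for 95% counting intervals. Fezf1 moves from -0.89 over all cells to -0.04 with equal weights (-0.50 without the Sst and Ptbp3 cluster, not drawn), while Emx2 and Nkx2-4 stay above 0 in both (0.26 and 0.40, 0.25 and 0.39).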

How the data were processed

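Drop-seq counts were analysed from 1 control and 1 Sim1 heterozygous library. The authors deposited UMI counts per gene and barcode, which are not normalized. Per the submitters' processing notes, bcl2fastq, Picard, STAR 2.6.0b, Seurat 3 and mm10 are named. The sources used here do not give their roles, the gene annotation, the counter or the rule for cells. The filter of 300 genes per barcode removed 1 control and 22 Sim1 heterozygous barcodes. Scrublet marked 6 of 5260 cells (0.114%), a share too low to rely on its calls, so none was removed.

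Cells were clustered in scanpy 1.11.5 (Python 3.11.15) on 2000 variable genes without the 4 members, Otp, Foxb1, Sim1, Irx, sex-linked and mitochondrial genes (30 components, 20 neighbours, Leiden resolution 1), and neuron-like cells were clustered again. CPM is UMIs per 1000000 UMIs of the cells summed. Ratios use a pseudocount of 1 UMI, for genes with at least 30 UMIs, with conditional exact binomial intervals. On simulated counts for the neuron-like comparison these included the true ratio for 95.7% of 14018 genes left unchanged. The limit for a count of 0 was 3 counts.

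The members and gene lists were chosen with earlier results of these data known. Named per member were the 8 genes higher and 4 lower with the farthest interval bound in both libraries, found in at least 10 positive cells for the higher ones, the 3 closest by correlation, and up to 4 of each list. Mitochondrial, ribosomal, sex-linked, haemoglobin and unnamed genes were passed over, and a few genes that the rule takes are not reported here. Alternatives changed filters, weights, thinning, strata, positivity and clustering.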

Additional observations from a re-analysis of the deposited data

How the results depend on the processing

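Of 188 recomputed values that answer a comparison, 129 moved by less than their interval or 1.5 times, 58 moved further, and 1 that lay at least 1.5-fold from 1 crossed it. No paired analysis was possible because each group has 1 library. With clusters weighted equally the Fezf1 log2 ratio was -0.04, and that of the other 3 genes was within the main interval. Without the Sst and Ptbp3 cluster, an alternative chosen after seeing the data, the Fezf1 value was -0.50. For Fezf1 with Fezf2 the ratio to the product of shares was 1.16 in control within cluster strata (the value that crossed 1). In Sim1 heterozygous cells, where the main ratio was less than 1.5-fold from 1, it also crossed 1: 1.02 without depth strata, 2.16 thinned, 1.27 without the 5% deepest cells and 2.06 within cluster strata, as did Emx2 with Foxb1 (1.05 without depth strata). The Fezf1 with Fezf2 ratio was 0 in both libraries with 2 or more UMIs of each (0.918 and 0.443 cells by the product).

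With 2 or more UMIs of the member, ratios in control became 0.478 for Fezf2 with Otp, 2.02 for Fezf2 with Foxb1, 0 for Emx2 with Otp (20.9 cells by the product), 0.274 for Nkx2-4 with Otp and 0.884 for Nkx2-4 with Foxb1, and in Sim1 heterozygous cells 0.193 for Fezf2 with Otp. In thinned cells they became, in control, 0.641 for Fezf2 with Otp, 0.0741 for Emx2 with Otp and 1.28 for Emx2 with Foxb1. In thinned Sim1 heterozygous cells they became 0.0811 for Fezf1 with Foxb1, 0.609 for Fezf2 with Foxb1, 0.704 for Emx2 with Otp, 0.701 for Emx2 with Foxb1, 1.15 for Nkx2-4 with Otp and 0.507 for Nkx2-4 with Foxb1.

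The share of UMIs in the leading cluster (control, then Sim1 heterozygous) was 65.6% and 70.1% for Fezf2, 92.5% and 87.0% for Emx2 and 58.6% and 55.4% for Nkx2-4 at resolution 0.5. At resolution 2 it was 38.7% and 48.6%, 60.0% and 59.7%, and 33.7% and 29.1%. With the members, Otp and Foxb1 left in the clustering it was 81.4% and 81.9% for Emx2. The share for Fezf1 moved by less than its interval in these.

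Genes lower and higher between libraries numbered 4224 and 4241 with no low-count filter and 607 and 538 with at least 100 UMIs. Genes higher with Fezf1, Fezf2, Emx2 and Nkx2-4 numbered 545, 695, 396 and 299 at 1.5-fold, 21, 30, 25 and 18 with at least 100 UMIs, and 406, 718, 214 and 279 with 2 or more member UMIs. Genes lower numbered 391, 319, 261 and 244 at 1.5-fold, and 80, 66, 56 and 33 with at least 100 UMIs. With 2 or more Fezf2 UMIs 65 were lower. Of 96 values of named genes 69 held, 26 moved and 1 turned, Avp in Fezf2-positive control cells (-2.35). The causes were not tested, apart from fewer genes or cells entering. Depth limits all shares: most positive cells held 1 UMI.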
